A study of Mus musculus with 16 samples.

Results

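The differentiation of C2C12 cells without miR-206 and both miR-1a genes (miR-1a-1, miR-1a-2) was described from RNA-seq of 8 libraries, out of 16 in the series. C2C12 is an established mouse myoblast line, and the labels describe the cells as PAX7 negative. The 8 libraries are all those labelled triple knockout (tKO), and they were chosen by these labels alone. They came from 2 knockout lines, C1 and C2, each of which is 1 clone. Each clone was sampled as myoblasts in growth medium with 20% FBS (GM) and as myotubes after 3 days in 2% HS (DM3). At each stage there were 2 cultures, numbered BR1 and BR2, so that each group held 4 libraries. The other 8 libraries came from 2 wild-type control populations, P1 and P2, sampled at the same stages and likewise as 4 libraries per stage. They were used here to share the estimate of the spread and to ask where the response of the knockout differed. The labels do not say that the cultures were independent, so p-values measure the spread between these libraries, which may be technical in part.

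miR-1 and miR-206 are muscle microRNAs of 1 family. A microRNA guides a silencing complex to messages whose 3′ untranslated region (UTR) pairs with its seed, which lowers the level or the translation of those messages. Myoblast differentiation joins exit from the cell cycle to the activity of the MyoD family of transcription factors, expression of the contractile apparatus and fusion of the cells into myotubes. The study's title names the questions as mitochondrial and muscle function and myogenesis in vitro. The mature sequence of the family member in the RefSeq table is shown because its seed, bases 2 to 8, defines the matches counted further on. The seed is in capitals.
mmu-miR-206-3p: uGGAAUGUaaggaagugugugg
It lies on the plus strand at chr1:20679055-20679076 of GRCm38.p6 within a noncoding gene listed as mmu-mir-133b (ENSMUSG00000099906, chromosome 1, 20679023 to 20684298).

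The knockout libraries held 22642563 to 31378669 fragments in GM and 27714736 to 32102386 in DM3. The share of the 10 highest genes was 5.86% to 6.61% in GM and 9.61% to 11.7% in DM3. No pair of libraries of the same knockout group held the same counts within counting noise (chi-square per degree of freedom 60.4 to 286), with Pearson's r across genes of 0.949 to 0.982, and none was treated as a repeat deposit. Poly(A) RNA-seq does not measure mature microRNAs, and the knockout labels were not checked directly. The noncoding gene that spans miR-206 had 0 fragments in every tKO GM library and 0 to 4 in control GM, so GM does not tell the genotypes apart. In DM3 it had 14 to 152 fragments in the knockout and 59 to 608 in control cells. The stage labels were checked against listed stage markers. Of 9 tested myotube markers 9 rose, and of 6 markers of proliferating myoblasts 5 fell and Myf5 was not called. Myh8, the perinatal myosin, was under the expression filter at 0.0522 to 0.289 FPKM (fragments scaled by gene length and by library depth) in DM3.

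Differentiation changed 60.9% of the 11832 genes tested in knockout cells. On log2(FPKM + 1), limma called 7208 genes at an adjusted p under 0.05, of which 2951 were higher in DM3 (24.9% of those tested) and 4257 lower (36.0%). Counts of list members that rose or fell, given further on, are to be read beside these shares. The 4 DM3 and 4 GM libraries did not overlap for 49.1% of tested genes. Of the calls, 2488 had an absolute log2 difference of at least 1, with 1025 higher and 1463 lower. The balance of directions depended on scaling: the median difference of all genes was -0.12 with FPKM as deposited and 0.0063 with median-of-ratios scaling, which gave 3573 higher and 3587 lower. Without culture BR1 there were 2929 higher and 3183 lower calls, and without BR2 there were 2140 and 4107. In bulk RNA, fewer cells of a type and less RNA per cell cannot be told apart, and a log2(FPKM + 1) difference understates the change of genes with low values. Library values are given throughout in the order clone 1 BR1, clone 1 BR2, clone 2 BR1 and clone 2 BR2.

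The 12 largest rises among protein-coding genes were mostly of the contractile apparatus. Igfbp5, a secreted binding protein of insulin-like growth factors, stood at 8.99, 0.250, 0.812 and 0.0757 FPKM in GM and 434, 441, 379 and 209 FPKM in DM3 (log2 difference 7.31, SE 0.53, adjusted p = 1.88e-08). All DM3 libraries lay far above all GM libraries, and clone 1 BR1 was the highest in GM. Myl1, an essential light chain of fast muscle myosin, had 1 to 3 fragments per GM library and stood at 0.0312, 0.122, 0.0589 and 0.0300 FPKM in GM and 193, 93.6, 257 and 117 FPKM in DM3 (log2 difference 7.18, SE 0.28, adjusted p = 2.37e-11). Mylpf, the fast regulatory light chain, stood at 1.10, 0.634, 0.832 and 0.720 FPKM in GM and 451, 104, 466 and 167 FPKM in DM3 (log2 difference 7.09, SE 0.36, adjusted p = 5.6e-10). For both light chains the groups were fully separate, and both BR1 cultures were above both BR2 cultures in DM3. Among the others, with log2 differences of 6.50 to 5.19, were the troponins Tnnt3, Tnnt1 and Tnni2, the bone morphogenetic protein co-receptor hemojuvelin (Hfe2), the triad protein Jsrp1, the fetal acetylcholine receptor subunit Chrng, the Z-disc actinin Actn3 and embryonic myosin (Myh3).

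The 12 largest falls held smooth-muscle-type contractile genes, growth genes and genes known from other tissues. Actg2, an enteric smooth muscle actin, stood at 56.9, 565, 214 and 1154 FPKM in GM and 4.86, 13.2, 28.4 and 26.0 FPKM in DM3 (log2 difference -4.23, SE 0.70, adjusted p = 7.03e-05). Ctgf, a matricellular growth factor, stood at 51.7, 472, 62.6 and 274 FPKM in GM and 24.7, 4.52, 5.45 and 4.80 FPKM in DM3 (log2 difference -4.08, SE 0.74, adjusted p = 0.000167). In GM both genes were several-fold higher in BR2 than in BR1 of each clone, and every DM3 library was still below every GM library. Hmga2, a chromatin protein of proliferating embryonic cells, stood at 25.2, 67.5, 20.2 and 29.7 FPKM in GM and 2.49, 2.80, 1.08 and 1.58 FPKM in DM3 (log2 difference -3.50, SE 0.28, adjusted p = 3.99e-08). Nop56, a core protein of box C/D snoRNPs, stood at 79.4, 111, 56.5 and 84.6 FPKM in GM and 5.47, 11, 5.64 and 5.88 FPKM in DM3 (log2 difference -3.40, SE 0.20, adjusted p = 2.63e-09). For both genes every DM3 library was below every GM library. The falls of Itgb7, Anxa8, Tigit, Tagln, Lce1g, Ccl2, Mcm5 and Mybl2 had log2 differences of -4.03, -3.87, -3.80, -3.78, -3.63, -3.49, -3.31 and -3.31.

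**Figure D1:**
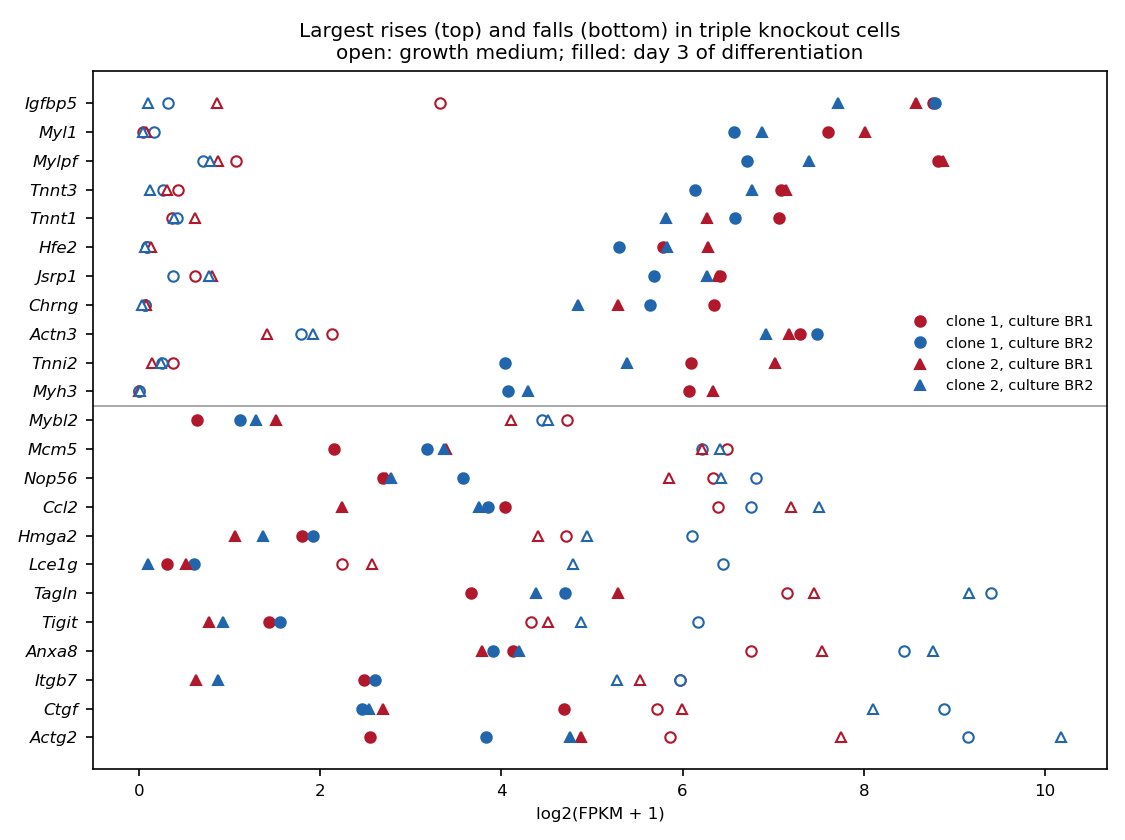
Levels of 11 of the 12 protein-coding genes with the largest rise and of the 12 with the largest fall, as log2(FPKM + 1) on the horizontal axis, in 4 GM libraries (open) and 4 DM3 libraries (filled) of the knockout. Shape marks the clone and colour the culture; for every gene shown the open and filled points do not overlap, from Igfbp5 (7.31) to Actg2 (-4.23).

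Of 22 listed myogenic regulators, 15 passed the filter on low values, 9 rose and 1 fell, with a median log2 difference of 0.49 against -0.12 for all tested genes. Myog (myogenin, the MyoD-family factor of terminal differentiation; ENSMUSG00000026459, chromosome 1, 134289989 to 134292548) stood at 0.113, 0.0591, 0.0213 and 0 FPKM in GM and 20.4, 19.3, 8.23 and 3.89 FPKM in DM3 (log2 difference 3.50, SE 0.39, adjusted p = 1.4e-06). It rose in both clones, and the clone 1 cultures reached levels above those of clone 2. Myod1, the MyoD gene, stood at 0.0546, 0.0238, 0 and 0 FPKM in GM and 3.41, 2.72, 1.63 and 1.61 FPKM in DM3 (log2 difference 1.68, SE 0.22, adjusted p = 5.83e-06), with 0 to 3 fragments in GM. All DM3 libraries were higher than all GM libraries for both genes. Myf5, the family member of early myoblasts, stood at 11.5, 12.2, 13.9 and 12.4 FPKM in GM and 10.005, 27.2, 8.94 and 22.0 FPKM in DM3 (log2 difference 0.28, SE 0.28, adjusted p = 0.419). It did not pass the test, and in DM3 it lay below the GM range in both BR1 cultures and above it in both BR2 cultures. Mef2a and Mef2d rose by 0.89 and 0.54, and the E protein genes Tcf12 and Tcf4 by 0.49 and 0.67, whereas Mef2c had at most 2 fragments in any GM library and 0.0216 FPKM or less in DM3 and was not tested. Vgll3, a TEAD cofactor, fell by 1.19. Without culture BR2 only 4 of the 15 regulators rose, and the median was 0.14, while 10 rose without BR1.

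Genes for proteins that hold MyoD or its E protein partners in check moved in both directions: 8 of 14 tested rose (57.1%) and 5 fell (35.7%), of 20 listed, beside 24.9% and 36.0% of all tested genes, so the share that fell was close to that of all genes. The falls were in Id2, Id1, Hes1, Id3 and Twist2 (log2 differences -2.54, -1.89, -1.89, -1.54 and -0.90). Id proteins bind E proteins without binding DNA, and Hes1 is a repressor downstream of Notch. Id2 stood at 17.6, 15.9, 30.9 and 24.9 FPKM in GM and 2.48, 5.04, 1.36 and 3.52 FPKM in DM3 (log2 difference -2.54, SE 0.32, adjusted p = 4.54e-06), and all its DM3 libraries were below all its GM libraries. The rises were in the class IIa deacetylases Hdac4, Hdac5 and Hdac7, in Bhlhe40 and Bhlhe41, and in Zeb1, Snai2 and Hey1. Hdac5, which binds and represses MEF2 factors, stood at 12.7, 3.91, 13.3 and 5.20 FPKM in GM and 42.3, 31.7, 35.8 and 30.5 FPKM in DM3 (log2 difference 2.03, SE 0.30, adjusted p = 2.27e-05). Hdac4, a much studied target of miR-1 and miR-206, stood at 3.03, 3.46, 3.38 and 4.06 FPKM in GM and 5.63, 6.35, 9.38 and 7.20 FPKM in DM3 (log2 difference 0.84, SE 0.14, adjusted p = 5.62e-05). Neither deacetylase overlapped between stages, and in GM Hdac5 was lower in both BR2 cultures than in both BR1 cultures. Without clone 2, or with only the 8 knockout libraries in the fit, 5 genes of the list rose.

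Both muscle-specific fusion genes were higher in differentiated knockout cells. Myomaker (Tmem8c, chromosome 2, 27061636 to 27072179) stood at 0.146, 0.0320, 0 and 0.0235 FPKM in GM and 33.6, 11.7, 39.4 and 19.1 FPKM in DM3 (log2 difference 4.54, SE 0.27, adjusted p = 2.29e-09). Myomixer (Gm7325, chromosome 17, 45600967 to 45602102) had 0 fragments in every GM library and stood at 5.96, 1.06, 0.805 and 0.226 FPKM in DM3, with a limma adjusted p of 0.00543. The DM3 mean was at least 16.1-fold above a floor of 3 fragments per library, which is 0.125 FPKM for this gene and covers counting error only. Clone 1 BR1 decided the Myomixer mean, and for Myomaker both BR1 cultures were above both BR2 cultures. Of 29 listed genes of fusion and membrane repair, 22 were tested, with a median of 0.37 that was 0.12 without culture BR2. Of the 22, 10 rose (45.5%) and 6 fell (27.3%), beside 24.9% and 36.0% of all tested genes. Integrin alpha 7 (Itga7, a laminin receptor of myotubes) stood at 98.6, 52.6, 58.7 and 61.0 FPKM in GM and 651, 408, 570.1 and 416 FPKM in DM3 (log2 difference 2.91, SE 0.20, adjusted p = 6.68e-09), with no overlap. Tmem182 rose by 2.70, Fer1l5 by 1.17, Bin1 by 1.07, Jam2 by 1.05 and dysferlin (Dysf) by 0.97. The falls were in N-cadherin (Cdh2), Kirrel, Ptrf, Ckap5, Myof and Ehd1, from -1.11 to -0.40.

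Sarcomere genes rose as a group. Of 7 tested myosin genes (20 listed) 6 rose and 0 fell, with a median of 3.01. Embryonic myosin heavy chain (Myh3) had 1 fragment in all GM libraries together and stood at 66.3, 15.8, 79.5 and 18.6 FPKM in DM3 (limma adjusted p = 2.7e-08). Mybph, a myosin-binding protein, likewise had 1 fragment in GM and 9.72, 3.33, 14.7 and 4.94 FPKM in DM3 (limma adjusted p = 8.09e-07). In both clones BR1 was above BR2 for these genes, by a mean log2 of 2.02 for Myh3 and 1.35 for Mybph. The adult fast and slow heavy chains Myh1, Myh2, Myh4 and Myh7 did not pass the filter. Myl4 and Myl6b rose by 1.97 and 2.02.

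Of 16 tested thin filament genes (20 listed) 13 rose and 2 fell, with a median of 1.71 that was 1.03 without culture BR1. Fast troponin T (Tnnt3) stood at 0.344, 0.205, 0.236 and 0.0902 FPKM in GM and 135, 69.2, 139.8 and 108 FPKM in DM3 (log2 difference 6.50, SE 0.27, adjusted p = 5.49e-11). Slow troponin T (Tnnt1) stood at 0.287, 0.334, 0.542 and 0.306 FPKM in GM and 132, 94.3, 75.9 and 55.4 FPKM in DM3 (log2 difference 5.98, SE 0.20, adjusted p = 3.51e-12). Both were nearly silent in every GM library and abundant in every DM3 library. Skeletal actin (Acta1) stood at 9.02, 72.1, 18.1 and 25.9 FPKM in GM and 663, 115, 682 and 157 FPKM in DM3 (log2 difference 3.61, SE 0.57, adjusted p = 5.09e-05). Its groups did not overlap, but clone 1 BR2 went only from 72.1 to 115 FPKM while both BR1 cultures reached several times that level. Cardiac actin (Actc1) and slow troponin C (Tnnc1) rose by 2.34 and 2.83, the leiomodins Lmod2 and Lmod3 by 1.71 and 0.98, and nebulin (Neb) by 0.63. The tropomyosins Tpm1 and Tpm3 fell, with log2 differences of -1.66 and -1.44, and Tpm2 stood at 0.09 and did not pass.

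Of 25 tested genes of the Z disc, M band and muscle cytoskeleton (38 listed) 17 rose and 1 fell, with a median of 1.85. Actn3, the actinin of fast fibres, stood at 3.37, 2.45, 1.67 and 2.79 FPKM in GM and 156, 178, 143 and 120.2 FPKM in DM3 (log2 difference 5.40, SE 0.19, adjusted p = 6.12e-12). Myom2, an M-band protein, stood at 0.711, 2.38, 2.42 and 2.76 FPKM in GM and 81.6, 66.1, 115 and 100.4 FPKM in DM3 (log2 difference 4.94, SE 0.22, adjusted p = 1.11e-10). Clone 1 BR1 was lowest in GM for Myom2, and the DM3 libraries of both genes were close to each other. Klhl41 and Klhl40, adaptors that stabilise thin filament proteins, rose by 4.83 and 3.65. Desmin (Des), Pdlim3, Smyd1, Synpo2l and Myom1 rose by 2.77 to 3.02, and titin (Ttn) by 1.00 from levels under 0.01 FPKM. The gene that fell was Ankrd1 (-2.09), a nuclear and sarcomeric ankyrin-repeat protein.

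The promoter of Myl1 is shown because this gene had the largest rise of the sarcomere lists among those in the RefSeq promoter table. The window is the 250 bases before the start at chr1:66945057-66945306 of GRCm38.p6, minus strand, with the match to CAGCTG, an E-box to which MyoD-family factors can bind, in capitals.
Myl1: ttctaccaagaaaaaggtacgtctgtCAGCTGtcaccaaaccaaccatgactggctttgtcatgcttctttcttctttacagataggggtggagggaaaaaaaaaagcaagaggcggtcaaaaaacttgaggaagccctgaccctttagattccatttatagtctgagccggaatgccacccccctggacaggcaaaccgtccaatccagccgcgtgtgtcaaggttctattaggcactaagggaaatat
The match lies 224 to 219 bases before the start. Over both strands CAGCTG was found in 16 of 37 promoters of the sarcomere lists (43.2%) and in 975 of 8491 promoters of all tested genes (11.5%). Its share was 16.7% among genes higher by a log2 of at least 1 and 9.65% among those lower by at least 1. The other E-box core, CAGGTG, was in 8 of the 37 (21.6%) against 13.6% of all. These are counts of letters in a window and say nothing of binding.

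Genes of the triad, where the nerve impulse releases calcium, rose as a group. Of 22 tested genes of excitation-contraction coupling (29 listed), 18 rose and 2 fell, with a median of 2.10. Jsrp1, a junctional reticulum protein, stood at 0.535, 0.300, 0.746 and 0.710 FPKM in GM and 84.3, 50.5, 83.2 and 76.2 FPKM in DM3 (log2 difference 5.55, SE 0.19, adjusted p = 3.51e-12). Triadin (Trdn) stood at 1.18, 0.450, 1.60 and 0.697 FPKM in GM and 42.4, 56.8, 47.7 and 49.3 FPKM in DM3 (log2 difference 4.69, SE 0.22, adjusted p = 1.59e-10). The DM3 libraries were alike for both genes and far above GM. The calcium pump Atp2a1 stood at 0.0873, 0.0889, 0.183 and 0.0187 FPKM in GM and 29.6, 8.39, 14.8 and 8.10 FPKM in DM3 (log2 difference 3.70, SE 0.30, adjusted p = 4.91e-08), highest in clone 1 BR1. The ryanodine receptor Ryr1 rose by 3.36, Hrc by 3.70, Cacng1 by 3.53, Rtn2 by 3.24 and Tmem38a by 3.16. Fkbp1a, which acts in many cell types, fell by 0.64.

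At the synapse, 7 of 11 tested genes of the neuromuscular junction (16 listed) rose and 2 fell. The receptor subunits led: the fetal gamma subunit Chrng stood at 0.0485, 0.0477, 0.0573 and 0.0233 FPKM in GM and 80.5, 49.0, 37.9 and 27.7 FPKM in DM3 (log2 difference 5.47, SE 0.21, adjusted p = 1.65e-11). Chrnd rose by 4.55 and Chrna1 by 3.57, while Chrnb1 stood at 0.45 and did not pass. Chrng and Chrnd were higher in clone 1 than in clone 2 in DM3, and all DM3 values exceeded all GM values. The agrin receptor Lrp4 rose by 2.28, agrin (Agrn) by 1.43, Musk by 0.72 and Rapsn by 0.60. Nestin (Nes) and Erbb2 fell, with log2 differences of -1.37 and -0.80.

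Of 16 tested genes of the dystrophin complex (19 listed), which ties the cytoskeleton to the matrix, 10 rose and 1 fell, with a median of 0.81. Alpha-sarcoglycan (Sgca) stood at 1.14, 0.948, 2.51 and 2.86 FPKM in GM and 30.4, 12.5, 55.4 and 43.9 FPKM in DM3 (log2 difference 3.55, SE 0.34, adjusted p = 2.24e-07). Its DM3 libraries were all above its GM libraries. Laminin alpha 2 (Lama2) and beta-sarcoglycan (Sgcb) rose by 3.21 and 1.67, and sarcospan (Sspn) by 1.32. Dystrophin itself (Dmd) did not pass the filter, and utrophin (Utrn) stood at 0.16 and did not pass the test.

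**Figure D2:**
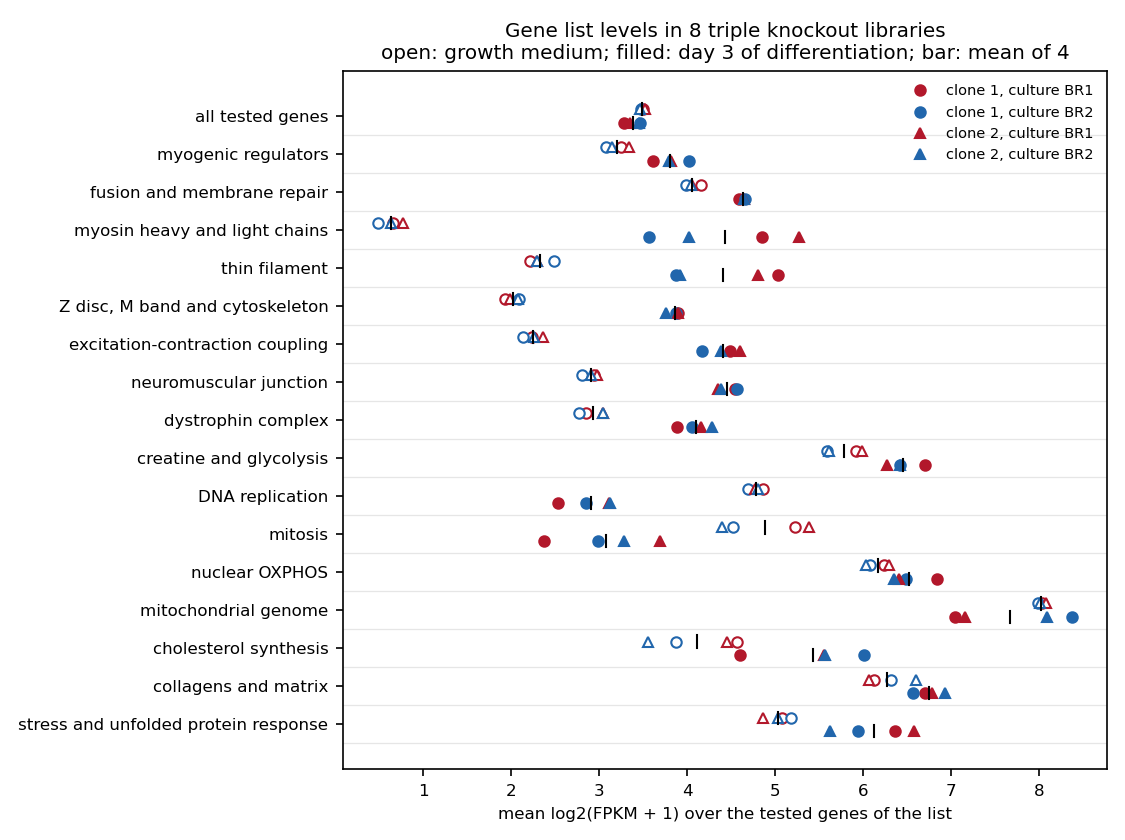
Mean log2(FPKM + 1) over the tested genes of each list (horizontal axis) in each knockout library, open for GM and filled for DM3; the black bar is the group mean, shape the clone and colour the culture. The myosin genes moved from between 0.481 and 0.767 to between 3.57 and 5.28, with BR1 above BR2, while the replication and mitosis lists moved down in all libraries.

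The cell cycle lists fell without exception in the fit as deposited. All 47 tested genes of DNA replication were lower in DM3, with a median of -1.92, and all 45 of mitosis, with a median of -1.83. With median-of-ratios scaling 46 and 44 fell and none rose. Mcm5, a subunit of the replicative helicase, stood at 88.8, 73.5, 73.0 and 83.9 FPKM in GM and 3.43, 8.07, 9.47 and 9.30 FPKM in DM3 (log2 difference -3.31, SE 0.21, adjusted p = 4.18e-09). Mki67, the proliferation marker, stood at 36.8, 22.0, 41.5 and 21.7 FPKM in GM and 1.36, 6.20, 7.70 and 6.82 FPKM in DM3 (log2 difference -2.38, SE 0.34, adjusted p = 1.64e-05). Clone 1 BR1 was the lowest DM3 library for both, and no DM3 library reached the GM range. The helicase genes Mcm3 and Mcm4 fell by 3.19 and 2.78 on the log2 scale, thymidine kinase (Tk1) by 3.04, survivin (Birc5) by 2.57 and condensin Smc2 by 2.59. The mean level of the mitosis list fell by 2.20 in clone 1 and by 1.40 in clone 2. By culture number its change was -2.28 in BR1 and -1.32 in BR2. In GM its level was 5.22 and 5.39 in the BR1 cultures and 4.52 and 4.39 in the BR2 cultures. Ccna2, the S and M phase cyclin, stood at 78.8, 41.4, 82.5 and 42.6 FPKM in GM and 4.87, 8.01, 23.2 and 13.5 FPKM in DM3 (log2 difference -2.35, SE 0.33, adjusted p = 1.37e-05), with the most left in clone 2 BR1.

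Among cyclins, their kinases and inhibitors, 7 of 24 tested genes (27 listed) rose (29.2%) and 15 fell (62.5%). Over all tested genes the shares were 24.9% and 36.0%, so the share that rose was close to that of all genes. Cyclin D1 (Ccnd1) stood at 90.6, 133, 119.7 and 173 FPKM in GM and 44.8, 35.8, 25.1 and 52.1 FPKM in DM3 (log2 difference -1.70, SE 0.27, adjusted p = 4.36e-05), without overlap. Ccne2, E2f7 and Rbl1 fell, with log2 differences of -2.79, -2.07 and -1.61. The rises were in Gadd45a, cyclins D2 and D3 (Ccnd2, Ccnd3), the inhibitors Cdkn1a and Cdkn1b, and Rb1 and Rbl2. Gadd45a, a stress-induced regulator of growth arrest, stood at 4.14, 8.74, 4.09 and 7.17 FPKM in GM and 213, 84.0, 141 and 56.7 FPKM in DM3 (log2 difference 4.03, SE 0.34, adjusted p = 8.01e-08). It rose in all libraries and stood higher in BR1 than in BR2. Cdkn1a (p21), the inhibitor tied to myoblast cell cycle exit, stood at 111, 251, 224 and 387 FPKM in GM and 362, 281, 461 and 396 FPKM in DM3 (log2 difference 0.73, SE 0.30, adjusted p = 0.0466). Its groups overlapped, with a GM level from 111 to 387 FPKM that was lowest in clone 1 BR1. Without clone 2, 4 genes of the list rose.

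The promoter of Mcm5, the largest fall of these lists among genes in the RefSeq promoter table, covers the 250 bases before the start at chr8:75109259-75109508 of GRCm38.p6, plus strand. Capitals mark matches to CCAAT, the NF-Y element, and to TTTNNCGC, a partial E2F site.
Mcm5: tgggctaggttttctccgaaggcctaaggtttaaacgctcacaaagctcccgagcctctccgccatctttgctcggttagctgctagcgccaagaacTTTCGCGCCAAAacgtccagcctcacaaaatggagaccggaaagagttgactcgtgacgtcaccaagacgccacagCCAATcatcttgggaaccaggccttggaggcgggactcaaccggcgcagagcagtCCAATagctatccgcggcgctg
The CCAAT matches lie 77 to 73 and 22 to 18 bases before the start, and the TTTNNCGC matches, which overlap on opposite strands, 153 to 146 and 149 to 142. Over both strands CCAAT was in 26 of 35 mitosis promoters (74.3%) and 24 of 39 replication promoters (61.5%), against 37.0% of all 8491. TTTNNCGC was in 9 of 39 replication promoters (23.1%) against 7.69% of all. TTTGAA, which the cell cycle homology element contains, was in 13 of 35 mitosis promoters (37.1%) against 10.05%. CCAAT was also in 15 of 16 promoters of cholesterol synthesis genes (93.8%), which moved in the opposite direction.

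Genes of energy metabolism rose more often than they fell. Of 29 tested genes of creatine metabolism and glycolysis (37 listed), 17 rose and 3 fell, with a median of 0.54. Muscle creatine kinase (Ckm) stood at 0.0477, 0.0936, 0.0225 and 0.161 FPKM in GM and 23.0, 5.5, 21.8 and 5.47 FPKM in DM3 (log2 difference 3.51, SE 0.37, adjusted p = 7.73e-07). No DM3 value overlapped GM, but both BR1 cultures exceeded the BR2 cultures, by a mean log2 of 1.85. Muscle phosphoglycerate mutase (Pgam2) stood at 2.13, 2.58, 3.15 and 2.55 FPKM in GM and 11.1, 12.4, 17.8 and 19.4 FPKM in DM3 (log2 difference 2.14, SE 0.18, adjusted p = 6.22e-08). Muscle glycogen phosphorylase (Pygm), brain creatine kinase (Ckb) and muscle phosphofructokinase (Pfkm) rose by 2.13, 2.04 and 1.85. Eno3, Ldha and the creatine transporter Slc6a8 fell, with log2 differences of -1.12, -0.67 and -0.41. Without culture BR2, 9 genes of the list rose in place of 17, and without clone 1 11 did.

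Of 79 nuclear genes of oxidative phosphorylation, all tested, 39 rose and 6 fell, with a median of 0.32. The largest rise was in Cox6a2, the heart and muscle isoform of a cytochrome oxidase subunit, which stood at 0.256, 0.604, 0.0969 and 1.43 FPKM in GM and 35.5, 17.1, 11.5 and 6.49 FPKM in DM3 (log2 difference 3.37, SE 0.35, adjusted p = 6.92e-07). It differed several-fold among DM3 libraries, highest in clone 1 BR1. Cox7a1, another muscle isoform, rose by 1.42, and Ndufa13, a complex I subunit, by 1.14. Cox8b had 0 to 2 fragments in GM and 5.08, 0.864, 1.5 and 0.444 FPKM in DM3 (limma adjusted p = 0.00196). The 6 falls were in Ndufb2, Cycs, Atp5g3, Ndufb7, Sdhd and Ndufa9, from -0.74 to -0.26. Without clone 1 there were 21 rises, and without culture BR2 there were 25.

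The 13 protein-coding genes of the mitochondrial genome did not move together: mt-Co1 rose by 0.84, mt-Nd4l, mt-Nd3 and mt-Cytb fell by 1.19, 1.15 and 1.08, and 9 were not called. mt-Cytb, the cytochrome b of complex III, stood at 3257, 3017, 3789 and 3214 FPKM in GM and 890.5, 3733, 838 and 2173 FPKM in DM3 (log2 difference -1.08, SE 0.37, adjusted p = 0.0182). In DM3 both BR1 cultures were far below the GM range, clone 2 BR2 was also below it, and clone 1 BR2 was within it. The mean level of the 13 genes was 7.98 to 8.08 in GM and 7.04, 8.38, 7.16 and 8.09 in DM3, so the change was -0.95 in BR1 and 0.24 in BR2. Without BR2 the count became 0 higher and 7 lower, and without BR1, or without DM3 clone 1 BR1 alone, it became 2 higher and 0 lower. Without clone 2 none was called by limma. Mitochondrial fragments made up 1.98% to 2.48% of GM libraries and 1.20%, 3.31%, 2.32% and 2.97% of DM3 libraries.

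Of 20 tested regulators of mitochondrial biogenesis and dynamics (22 listed) 3 rose and 10 fell, and 6 fell without culture BR1. Pprc1, a coactivator related to PGC-1 alpha and induced by serum, stood at 22.3, 26.4, 15.2 and 19.8 FPKM in GM and 5.37, 7.23, 7.59 and 6.33 FPKM in DM3 (log2 difference -1.51, SE 0.15, adjusted p = 3.11e-07). Tfam, which packages mitochondrial DNA, stood at 13.5, 15.2, 11.8 and 14 FPKM in GM and 6.23, 8.17, 5.23 and 8.16 FPKM in DM3 (log2 difference -0.89, SE 0.14, adjusted p = 2.91e-05). Neither overlapped between stages. Tfb2m, Nrf1, Dnm1l and Mfn2 fell by 1.14, 0.84, 0.71 and 0.62. PGC-1 alpha itself (Ppargc1a) stood at 0.235, 0.171, 1.81 and 0.833 FPKM in GM and 0.434, 1.28, 3.43 and 2.72 FPKM in DM3 (log2 difference 0.71, SE 0.30, adjusted p = 0.0489). It was higher in DM3 for each clone and culture, but clone 2 in GM was above clone 1 BR1 in DM3. Of 38 tested genes of the citric acid cycle and fatty acid oxidation (41 listed) 19 rose and 3 fell, with a median of 0.25, and 11 rose without culture BR2. Pdk2, a kinase that inhibits pyruvate dehydrogenase, stood at 1.79, 2.40, 2.78 and 2.21 FPKM in GM and 18.5, 11.7, 16.1 and 16.1 FPKM in DM3 (log2 difference 2.33, SE 0.14, adjusted p = 3.41e-09), and it separated the stages fully.

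Cholesterol synthesis genes rose: 16 of 23 tested (24 listed) and none fell, with a median of 1.13. Tm7sf2, a sterol reductase, stood at 5.92, 2.18, 6.02 and 2.34 FPKM in GM and 34.1, 48.1, 70.5 and 63.9 FPKM in DM3 (log2 difference 3.48, SE 0.27, adjusted p = 3.51e-08). Cyp51, the sterol demethylase, stood at 39.1, 17.8, 46.6 and 18.6 FPKM in GM and 43.3, 170.5, 319 and 419 FPKM in DM3 (log2 difference 2.63, SE 0.53, adjusted p = 0.000445). Clone 1 BR1 stayed within the GM range for Cyp51, where the other DM3 libraries were far above it. Mvd and Fdps, enzymes of the mevalonate branch, rose by 2.57 and 2.34, and the sterol sensor partner Insig1 by 1.79. The mean level of the list was 4.57, 3.88, 4.45 and 3.55 in GM, lower in BR2 than in BR1 of each clone. In DM3 it was 4.60 in clone 1 BR1 and 5.56 to 6.01 in the others. Without culture BR1, 23 of 23 rose, and without BR2 10 rose and 1 fell. Without DM3 clone 1 BR1 alone, 19 rose.

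More matrix genes rose than fell, and the smooth-muscle-type cytoskeletal genes Tagln and Acta2 fell. Of 35 tested genes of collagens and matrix (37 listed) 17 rose and 5 fell, with a median of 0.59, and 8 fell without culture BR1. Periostin (Postn) stood at 7.35, 6.03, 4.43 and 7.92 FPKM in GM and 45.4, 49.4, 37.3 and 45.4 FPKM in DM3 (log2 difference 2.63, SE 0.26, adjusted p = 3.34e-07). Collagen VI alpha 1 (Col6a1) stood at 40.1, 25.8, 22.1 and 34.5 FPKM in GM and 201, 159, 129.9 and 167 FPKM in DM3 (log2 difference 2.41, SE 0.20, adjusted p = 5.9e-08). All DM3 libraries were high for both. Col3a1, Col6a2, Sparc, Col1a1, Mmp2 and Fn1 rose by 1.55 to 2.24. The falls were in Ctgf, Tagln, Timp3, Acta2 and Timp1. Transgelin (Tagln), an actin-binding protein of smooth muscle and myofibroblasts, stood at 141, 675, 174 and 569.9 FPKM in GM and 11.7, 25, 37.9 and 19.8 FPKM in DM3 (log2 difference -3.78, SE 0.49, adjusted p = 6.26e-06). In GM it was higher in BR2 than in BR1 of both clones, as was smooth muscle actin (Acta2), which fell by 1.39.

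In the insulin-like growth factor pathway 7 of 12 tested genes (15 listed) rose (58.3%) and 3 fell (25%). Over all tested genes the shares were 24.9% and 36.0%. Without clone 2 or without culture BR2, 1 gene of the list fell. Igf2, a ligand that promotes differentiation, stood at 0.114, 0.907, 0.0202 and 0.296 FPKM in GM and 22.6, 9.22, 21.8 and 11.9 FPKM in DM3 (log2 difference 3.66, SE 0.33, adjusted p = 1.15e-07). The imprinted noncoding RNA H19, its neighbour, stood at 379, 43.1, 50.6 and 3.90 FPKM in GM and 14016, 9101, 9055 and 6633 FPKM in DM3 (log2 difference 7.69, SE 0.82, adjusted p = 8.87e-07). Both rose in all libraries, and H19 spanned a wide range in GM, highest in clone 1 BR1. The binding protein Igfbp4 rose by 1.52 and Igfbp5 by 7.31. The receptor Igf1r, the adaptor Irs2 and Igfbp6 fell, with log2 differences of -0.47, -0.64 and -0.66, whereas the insulin receptor (Insr) rose by 0.69.

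Notch receptors and ligands rose, while the target gene Hes1 fell. Of 16 tested genes (22 listed) 10 rose and 2 fell, with a median of 0.83. Notch3 (chromosome 17, 32120820 to 32166880), a receptor and reported miR-1 and miR-206 target, stood at 6.85, 2.35, 10.5 and 5.57 FPKM in GM and 42.8, 46.5, 42.1 and 50.6 FPKM in DM3 (log2 difference 2.80, SE 0.25, adjusted p = 1.12e-07). The DM3 libraries of both clones were close together and far above the highest GM library, which was clone 2 BR1. Notch1 and Notch2 rose by 0.92 and 0.82, the ligands Dll1, Jag1 and Jag2 by 1.12, 0.96 and 0.85, and the effector Rbpj by 1.01. Hes1 stood at 10.4, 10.8, 6.27 and 8.47 FPKM in GM and 4.39, 1.18, 1.43 and 0.722 FPKM in DM3 (log2 difference -1.89, SE 0.28, adjusted p = 2.03e-05). Hey1 rose by 0.54, and Hes6, an antagonist of Hes1, by 1.15.

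Stress and atrophy genes rose. Of 20 tested genes of the stress and unfolded protein responses, 16 rose and 0 fell, with a median of 1.11. Trib3, a pseudokinase induced by stress, stood at 4.71, 4.16, 3.18 and 4.33 FPKM in GM and 59.7, 37.9, 56.8 and 14.5 FPKM in DM3 (log2 difference 2.91, SE 0.52, adjusted p = 0.000155). The chaperone Hspa5 rose by 1.43, Herpud1 by 1.62 and Xbp1 by 1.46. Ddit3 (CHOP), a transcription factor of the same response, stood at 46.6, 95.8, 47.1 and 68.0 FPKM in GM and 592, 65.4, 531 and 44.3 FPKM in DM3 (log2 difference 1.49, SE 0.76, adjusted p = 0.0995). It was high in both BR1 cultures and within the GM range or below it in both BR2 cultures, and it did not pass. Without clone 2, 8 genes of the list rose. Of 12 tested genes of muscle atrophy (15 listed), which include ubiquitin ligases, autophagy genes and regulators of atrophy, 9 rose and 0 fell. The ligase atrogin-1 (Fbxo32) stood at 0.934, 1.10, 1.32 and 0.856 FPKM in GM and 4.78, 6.42, 6.15 and 8.02 FPKM in DM3 (log2 difference 1.83, SE 0.15, adjusted p = 6.66e-08), and Map1lc3a, a protein of the autophagosome, rose by 1.98.

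Reported miR-1 and miR-206 targets fell more often than they rose in cells without these microRNAs. Of 53 tested (57 listed) 24 fell (45.3%) and 15 rose (28.3%), beside 36.0% and 24.9% of all tested genes, with a median of -0.40. The median turned to 0.02 without culture BR1. Monocyte to macrophage differentiation factor (Mmd) stood at 44.6, 95.8, 39.8 and 65.2 FPKM in GM and 28, 31.0, 34.1 and 36.2 FPKM in DM3 (log2 difference -0.83, SE 0.21, adjusted p = 0.00238). The gap junction gene Gja1 stood at 155, 139, 137 and 145 FPKM in GM and 68.9, 67.8, 101 and 157 FPKM in DM3 (log2 difference -0.63, SE 0.20, adjusted p = 0.0137), with clone 2 BR2 not lower than GM. Pfn2 and Tppp3 rose by 2.48 and 2.81, while Tagln2, Hspd1 and Lasp1 fell by 1.96, 1.82 and 1.52. In control cells the median of the list was -0.69, and the response was more positive in the knockout for 42 of 53 targets (79.2%), where it was more positive for 54.6% of all tested genes. With median-of-ratios scaling these shares were 73.6% and 49.0%. The list was recalled from the literature, and no test was made of it.

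Genes were then grouped by matches to the seed in the longest annotated 3′ UTR. A match of 8 bases (ACATTCCA) was present in 482 tested genes, and 1566 had only a 7-base match (ACATTCC or CATTCCA). During differentiation of the knockout the medians of these classes, -0.11 and -0.13, were close to that of the 8758 genes with no match (-0.11). In control cells the medians were -0.36, -0.29 and -0.14. With median-of-ratios scaling the knockout medians were 0.024, 0.0075 and 0.021, and the control medians -0.19, -0.12 and 0.037. The knockout response minus the control response was positive for 80.3%, 68.7% and 52.4% of the 3 classes, with medians of 0.23, 0.13 and 0.016. With median-of-ratios scaling the last became -0.024 and the others 0.19 and 0.096.

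Genes with a match have longer 3′ UTRs, with medians of 2495 and 2329 bases against 986, so the classes were also compared within ranges of length. From 1500 to 4000 bases the median differences of response were 0.23, 0.15 and 0.057 (241, 769 and 2585 genes). From 500 to 1500 bases they were 0.15, 0.12 and 0.0053 (97, 389 and 3260 genes). By library, the mean level of genes with an 8-base match minus that of genes without was -0.315 to -0.285 in tKO GM and -0.440, -0.260, -0.308 and -0.225 in tKO DM3. Only clone 1 BR1 left the GM range downwards, towards the -0.541 to -0.443 of control DM3. These are descriptions over genes that share libraries, with no test.

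**Figure D3:**
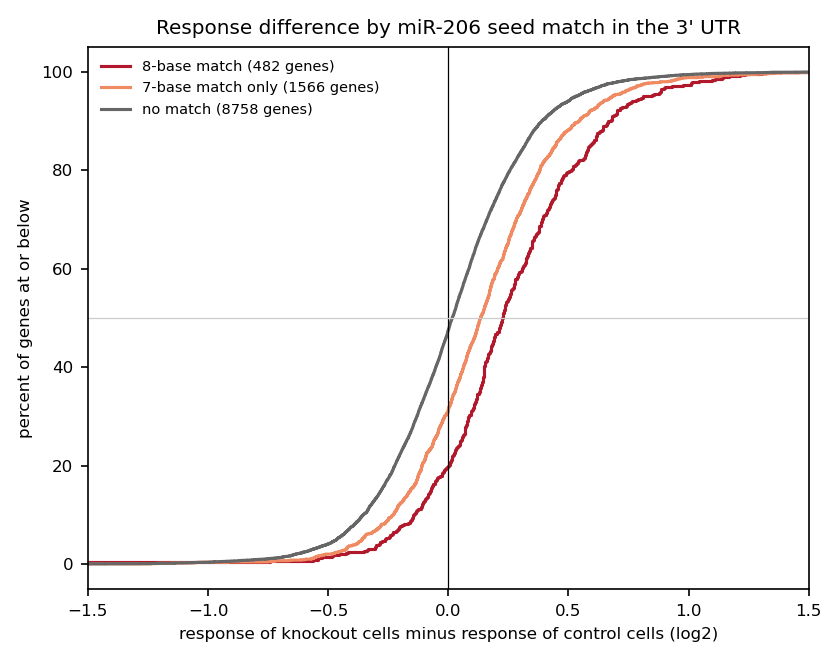
Cumulative share of genes (vertical axis, percent) by the response of knockout cells minus the response of control cells (horizontal axis, log2) for genes with an 8-base match, a 7-base match only and no match in the 3′ UTR. The curve of the 8-base class lies to the right of the others, with a median of 0.23 against 0.016 for genes with no match.

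The response to differentiation differed from that of control cells in 30 genes (0.254% of those tested; limma interaction, adjusted p under 0.05). It was more positive in the knockout for 24 (0.203%) and more negative for 6 (0.0507%), and 1278 genes had an unadjusted p under 0.05. Of the 30, 18 rose in the knockout, 4 fell and 8 were not called. Knockout and control shared 5971 calls of 1 direction, and of 1223 genes called in the knockout and not in control cells 6 had a tested difference. The number of genes leaned on single libraries: it was 179 without DM3 clone 1 BR1, 54 without GM clone 2 BR1, 16 without GM clone 2 BR2, 15 without DM3 clone 1 BR2, 13 without GM clone 1 BR1 and 6 without DM3 clone 2 BR2. With the line as a covariate it was 45, and with line and culture number as a block 7. With line averages as units, 1 gene passed, without culture BR1 2 did, and without BR2 none did.

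Slc25a1, the mitochondrial citrate carrier (chromosome 16, 17925211 to 17928219), stood at 42.0, 32.5, 41.7 and 29.6 FPKM in GM and 122, 149, 143 and 129.5 FPKM in DM3 (log2 difference 1.88, SE 0.12, adjusted p = 3.5e-09). In control cells it stood at 34.4 to 40.8 FPKM in GM and 38.2 to 45.1 in DM3, and the difference of response was 1.78 (limma adjusted p = 9.84e-05). The rise was thus seen in all 4 knockout libraries and in no control library beyond 45.1 FPKM. Notch3 went from 9.73 to 12 FPKM in control GM to 17.2 to 23.4 in control DM3, with a difference of response of 1.99 (limma adjusted p = 0.0286). Mxd4, a MAX dimerisation protein, and Pdcd4, a translation inhibitor, rose by 2.59 and 2.56, against 1.34 and 1.35 in control cells. Enpp1, an ectonucleotide pyrophosphatase, rose by 0.91 and stood at -0.25 in control cells.

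For some of these genes control cells changed and the knockout did not pass the test. Il1rn, the interleukin-1 receptor antagonist, stood at 0.164, 0.411, 0.812 and 0.722 FPKM in GM and 0.113, 0.126, 0.160 and 0.403 FPKM in DM3 in the knockout (log2 difference -0.33, SE 0.23, adjusted p = 0.222), where its level was low at both stages. Control cells went from 9.0 to 18.6 FPKM to 0.508 to 1.86, and Il1rn passed the expression filter only through them. G6pdx, an enzyme of the pentose phosphate pathway, stood at 54.4, 39.5, 63.5 and 38.2 FPKM in GM and 37.7, 51.8, 28.1 and 35.3 FPKM in DM3 (log2 difference -0.35, SE 0.19, adjusted p = 0.127). It fell by 1.73 on the log2 scale in control cells. Wdr6 rose by 0.44 in the knockout (adjusted p = 0.049) and stood at -1.02 in control cells, and its knockout value was -0.09 without culture BR2.

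The 6 genes with the more negative response were Sema3d, Trim72, Spry1, Mylk2, Zc3h8 and Emc6. All 6 calls were lost with a pseudocount of 0.1, where 13 genes were called, and with voom on whole fragments, where 20 were, each of them with a more positive response. Sema3d, a secreted semaphorin, stood at 0.0466, 0.0474, 0.00977 and 0 FPKM in GM and 1.23, 1.88, 0.354 and 0.310 FPKM in DM3 (log2 difference 0.84, SE 0.21, adjusted p = 0.00276). In control DM3 it reached 9.76 to 16.9 FPKM. Adding 1 to such low values shrinks the knockout change, and the difference of response of Sema3d was -2.60 on this scale and -0.26 with voom (adjusted p = 0.964). Trim72 (MG53), a membrane repair protein of muscle, stood at 0.0819, 0.0715, 0.168 and 0.171 FPKM in GM and 2.19, 0.534, 1.71 and 1.14 FPKM in DM3 (log2 difference 1.04, SE 0.18, adjusted p = 0.000102), against 4.91 to 7.12 in control DM3. No knockout DM3 library reached the control DM3 range for either gene. Mylk2, the skeletal myosin light chain kinase, stood at 0.503, 0.329, 0.497 and 0.286 FPKM in GM and 0.855, 0.436, 0.391 and 0.370 FPKM in DM3 (log2 difference 0.10, SE 0.14, adjusted p = 0.552) and rose by 1.11 in control cells. Spry1 had at most 1 fragment per tKO GM library and passed the expression filter only through control DM3. Its difference of response turned from -1.21 to 1.01 with voom (adjusted p = 0.679). Sema3d and Mylk2 also averaged under 0.5 FPKM over the knockout libraries, and passed the filter only through control cells. Zc3h8 and Emc6 fell by 1.54 and 0.52 in the knockout, against -0.56 and 0.14 in control cells.

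**Figure D4:**
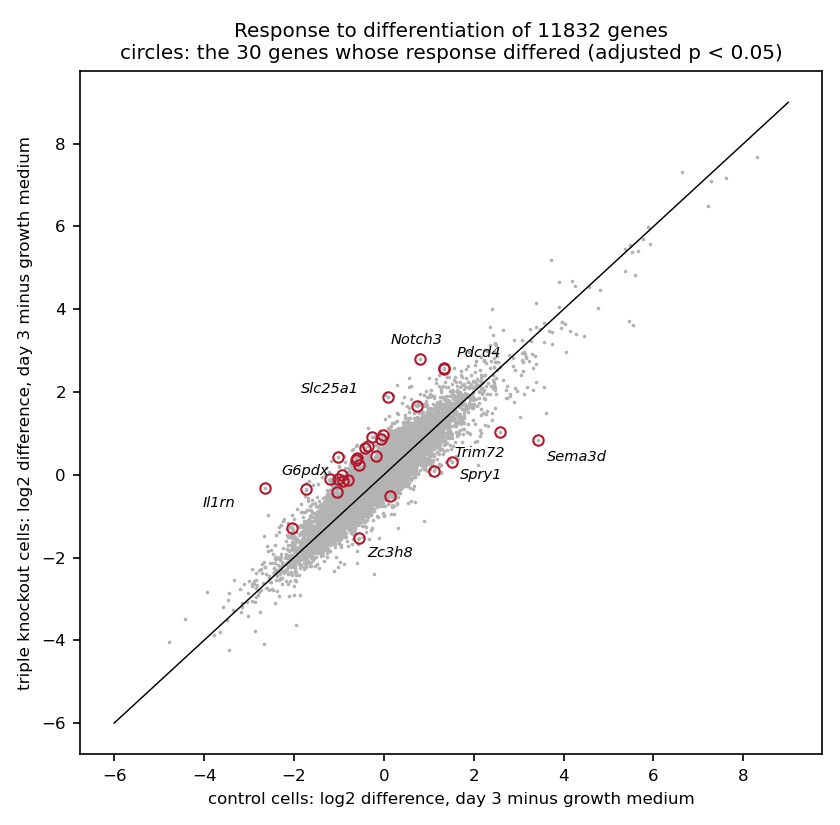
Log2 difference between DM3 and GM in control cells (horizontal axis) and in knockout cells (vertical axis) for 11832 genes, with the line of equality; circles mark the 30 genes whose responses differed. Most genes lie along the line, and Slc25a1 (1.88 against 0.10) and Sema3d (0.84 against 3.44) lie on opposite sides of it.

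Of the 30 genes, 5 carry an 8-base match in the 3′ UTR, all with the more positive response (1.04% of that class), and 15 carry a 7-base match only, 13 with the more positive response (0.83%). The 10 without a match include 6 of 8758 with the more positive response (0.0685%). The 5 with an 8-base match, chosen after their values were seen, are shown with 10 bases on either side. Slc25a1 and Notch3 are the 7-base examples, in windows of the same length (28 bases) that also start 10 bases before the match. Letters are from GRCm38, 5′ to 3′ on the strand of the message, with the match in capitals.
Upf3a, chr8:13798690-13798717, plus strand: tcagaataaaACATTCCAtcatcttttt
Kdsr, chr1:106724056-106724083, minus strand: cctgaagttcACATTCCAtttcagctca
Ust, chr10:8205109-8205136, minus strand: acctttcagcACATTCCAaggttttagt
H6pd, chr4:149980100-149980127, minus strand: gccaccactcACATTCCAcccaggaggc
Sri, chr5:8067579-8067606, plus strand: aatatattcaACATTCCAactggaactc
Sri, chr5:8069148-8069175, plus strand: ggtgaaataaACATTCCAtaagcatctt
Slc25a1, chr16:17925761-17925788, minus strand: ccagctcctcCATTCCAgaccccccgcc
Slc25a1, chr16:17925346-17925373, minus strand: ggcttcaccgCATTCCAggggctatagg
Notch3, chr17:32121166-32121193, minus strand: cacttcactgCATTCCAgataagacgtg
Notch3, chr17:32121024-32121051, minus strand: attttgtatgCATTCCActtctaattgt
Each site lies in the longest 3′ UTR that GENCODE vM21 annotates for the gene. The Upf3a site lies beyond the end of that gene as given with the deposited FPKM values (chromosome 8, 13785615 to 13798538). Upf3a, a factor of nonsense-mediated decay, fell by 0.42 in the knockout and by 1.04 in control cells. Kdsr and Sri were not called in the knockout (log2 differences -0.11 and -0.10) and fell by 1.01 and 1.20 in control cells. Ust and H6pd rose by 0.96 and 0.69 in the knockout and stood at -0.02 and -0.36 in control cells. A match is a description of the sequence and no evidence of repression by itself.

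No gene differed in response between the 2 clones at an adjusted p under 0.05 (0.0% of those tested; limma), with 489 genes at an unadjusted p under 0.05. With median-of-ratios scaling 8 genes passed, and with no filter on low values 28 did. With 2 cultures per clone and stage a difference of moderate size can be missed. The mean response of the myosin list, given like the next values without a test, was 3.64 in clone 1 and 3.95 in clone 2, and that of the thin filament list 2.10 and 2.07. For mitosis it was -2.20 and -1.40, and for cholesterol synthesis 1.08 and 1.56. Split by culture number, BR1 and BR2, the mitosis values were -2.28 and -1.32, and those of cholesterol synthesis 0.57 and 2.08.

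The knockout cultures differed in many genes. In DM3, 1029 genes differed between BR1 and BR2 (8.7% of those tested), 187 higher in BR1 (1.58%) and 842 lower (7.12%). With median-of-ratios scaling the split was 682 higher and 429 lower. In GM 438 genes differed (3.7%). Of the DM3 calls 47 were also called in GM, 14 in the same direction. Of the 7208 differentiation calls 604 were among the DM3 culture calls (8.38%).

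The genes with the largest excess in BR1 were Ddit3, Actc1, Tnnc1 and Acta1, with log2 differences of 3.36, 2.64, 2.32 and 2.32 (limma adjusted p from 0.00826 to 0.0185). Actc1, cardiac actin, stood at 0, 0.390, 0.0216 and 0.0441 FPKM in GM and 17.1, 2.08, 9.70 and 0.632 FPKM in DM3. Tnnc1, slow troponin C, stood at 4.49, 4.04, 4.20 and 2.66 FPKM in GM and 105, 14.8, 54.0 and 13.8 FPKM in DM3. In both clones BR1 was several-fold above BR2. The largest deficits were in Ppp1r10, RP23-8J15.5, Gm10222 and mt-Nd1, with differences of -2.18, -2.16, -2.12 and -2.05. Ppp1r10, a nuclear regulator of protein phosphatase 1, stood at 30.2, 26.6, 35.3 and 27.2 FPKM in GM and 1.62, 13.3, 1.32 and 7.70 FPKM in DM3. mt-Nd1 stood at 3769, 4243, 4659.9 and 4864 FPKM in GM and 785, 5253, 1504 and 3848 FPKM in DM3. RP23-8J15.5 and Gm10222 are listed as pseudogenes on chromosome 1, and their reads may be shared with near-identical copies.

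By list, BR1 exceeded BR2 in knockout DM3 by 1.26 for the myosins and 1.03 for the thin filament, against -0.22 and -0.23 in control DM3. For stress genes BR1 minus BR2 was 0.69 in the knockout and 0.92 in control cells, and for mitochondrial genome genes -1.14 and -0.51. For cholesterol synthesis it was -0.71 in the knockout and 0.84 in control cells. Over all genes called in the knockout, 893 of 1029 (86.8%) had the same sign in control DM3, beside 7460 of all 11832 tested (63.0%), where 80 genes were called, 27 of them in both. The culture difference itself differed between knockout and control in 1 gene by limma, Lmod2, an actin nucleator of the thin filament, named here after its value was seen. Its BR1 minus BR2 value was 1.32 in the knockout and -0.89 in control cells (difference 2.21, adjusted p = 0.021), and 1436 genes had an unadjusted p under 0.05. The labels do not say what the culture number stands for, and its part in the contractile levels was not tested.

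**Figure D5:**
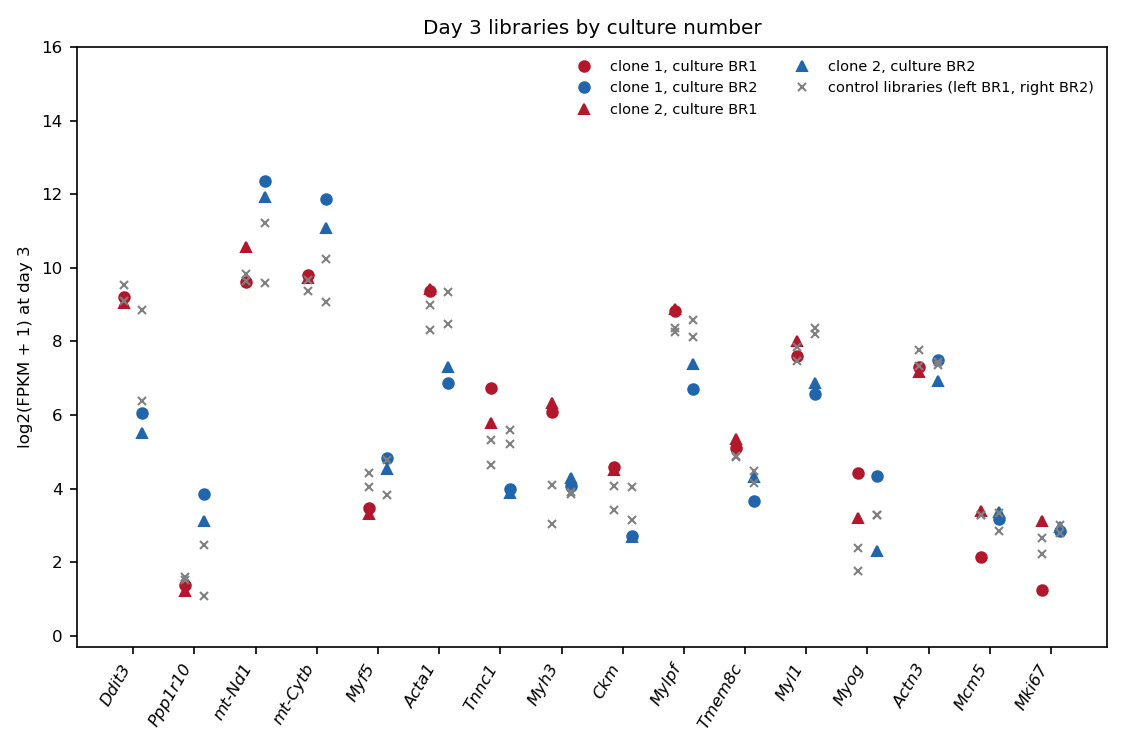
Levels in DM3 libraries, as log2(FPKM + 1) on the vertical axis, with BR1 on the left and BR2 on the right of each gene; triangles are clone 2, circles clone 1 and grey crosses control libraries. Ddit3, Acta1, Tnnc1, Myh3, Ckm and Mylpf are higher in BR1 of both clones and mt-Nd1 and Ppp1r10 lower, while Actn3 shows no such split.

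Markers of other cell types were low or mixed, except that 3 of 4 tested fibro-adipogenic markers rose and 0 fell. All 7 endothelial markers were below 0.5 FPKM in all 8 libraries, with summed levels of 0.107 to 0.760 FPKM in GM and 0.184 to 0.605 in DM3. For adipocytes, 5 of 8 markers, including Adipoq and Plin1, were below 0.5 FPKM in all libraries, and none of the 3 tested was called (sums 5.26 to 15.6 and 4.09 to 6.78). For leukocytes, 5 of 7, including Ptprc, were below 0.5 FPKM, and neither Cd68 nor Lyz2 was called (sums 2.02 to 8.47 and 2.17 to 9.62). For osteoblasts, 5 of 8 were below 0.5 FPKM, Phex rose by 1.17 and Runx2 fell by 0.53, and the sums of 167 to 447 and 116 to 213 FPKM were mostly Spp1.

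The smooth muscle list summed to 2135 to 6163 FPKM in GM and 1265 to 1757 in DM3, mostly Acta2, with its defining genes Myh11 and Myocd below 0.5 FPKM. Its members moved in both directions. Of 6 tested 2 rose (33.3%), Des among them, and 3 fell (50%), beside 24.9% and 36.0% of all tested genes. Fibro-adipogenic markers summed to 23.6 to 60.9 FPKM in GM and 65.8 to 169 in DM3, where decorin (Dcn), Ly6a and Pdgfra rose by 2.04, 1.34 and 0.56. Cd248, the last of the 4 tested, stood at 0.48 and was not called. The stages did not overlap for 1 of the 4, beside 49.1% of all tested genes. With only the 8 knockout libraries in the fit 2 were called, and without clone 1 only 1 was. Lum and Dpp4 of the same list were below 0.5 FPKM throughout. Of the markers of reserve and quiescent satellite cells, Pax7, Calcr, Spry1, Heyl, Chrdl2 and Tenm4 were below 0.5 FPKM in all 8 libraries. Of 7 tested in the same list 5 rose (71.4%) and 1 fell (14.3%), beside 24.9% and 36.0% of all tested genes. The rises were in Notch3, Cdkn1b, Cd34, Hey1 and Spry1, the last by 0.30 from at most 1 fragment per GM library. Sdc4 fell by 0.83. Without clone 2, 2 rose and none fell. The sums of the list were 130.3 to 179.6 FPKM in GM and 136.4 to 210.9 in DM3. The part of any of these cell types in the results was not tested.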

How the data were processed

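RNA was sequenced from poly(A)-enriched libraries of C2C12 cells on an Illumina HiSeq, per the labels' protocols. The authors deposited 1 table of FPKM values for 35275 genes in 16 libraries. The submitters' processing notes name STAR, DESeq and mm10, with no roles or versions; annotation version and strand handling are not given in the sources used here. Reads of overlapping, antisense or near-identical genes therefore may not be told apart.

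The 11832 genes with a mean of at least 0.5 FPKM over the 16 libraries were tested, 10930 of them protein coding. Values were taken as log2(FPKM + 1) and fitted with limma 3.58.1 in R 4.3.3 as 1 mean per group, with trended and robust empirical Bayes variances. P-values were adjusted by Benjamini and Hochberg's method across the 11832 genes. All adjusted p-values are limma's, and a call is an adjusted p under 0.05. The 16 libraries shared 1 estimate of the spread. FPKM steps gave whole fragments for every value, which supplied the depths, the fragment counts and a floor of 3 fragments. The code was tested on simulated data. Python 3.11.15 with numpy 2.4.6, scipy 1.17.1, pandas 2.3.3 and matplotlib 3.10.9 made the summaries and plots. Sequences came from RefSeq tables of GRCm38.p6, and 3′ UTR matches from GENCODE vM21 on GRCm38.

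Named genes were the 12 protein-coding genes with the largest rise and the 12 with the largest fall among calls whose groups did not overlap and whose adjusted p stayed under 0.05 in a fit of the 8 knockout libraries. From the interaction they were the 8 with the largest positive value and all 6 negative calls, and from the culture contrast the 4 largest each way. From each list up to 4 with the largest absolute difference were given by library, with 16 genes named whatever their values, and other list members only as members of their list. Some genes these rules name are not reported here. Members and lists were chosen with earlier results of these data known. Same-clone libraries are the same line at both stages. Deviations from group means correlated at 0.28 between cultures of 1 clone and at 0.198 (0.0771 to 0.323) for the same clone and culture number. Between clones they correlated at -0.275 for the same culture number and at -0.200 for the other culture number. Deviations cancel out within a group, so positive values in some pairs go with negative values in others. Alternatives covered scaling, filters, pseudocount, blocks, count-based weighting, and leaving out single knockout libraries, clones or cultures.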

Additional observations from a re-analysis of the deposited data

Results flagged for a closer look

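Within groups of 4, 15 of 263 gene and group combinations examined held a library that stood apart by Dixon's test, where chance gives about 1 in 20 (13.15). In tKO DM3, clone 1 BR1 was lowest for Mcm5 (3.43 FPKM against 8.07 to 9.47), Mki67 (1.36 against 6.20 to 7.70), Smc2 (1.35 against 5.44 to 5.57) and Cnn1 (0.158 against 1.34 to 1.70). It was highest for Ctgf (24.7 against 4.52 to 5.45) and Mylk2 (0.855 against 0.370 to 0.436). Clone 1 BR2 was lowest for Klhl40 (5.93 against 14.4 to 15.5) and highest for Nop56 (11 against 5.47 to 5.88), and clone 2 BR1 was lowest for Ccl2 (3.72 against 12.5 to 15.5). In tKO GM, clone 2 BR1 was lowest for Ccne2 (10.6 against 16.6 to 17.0) and highest for Spp1 (438 against 160.2 to 174). Clone 2 BR2 was highest for Gm10222 (25.9 against 19.8 to 20.7) and lowest for Pfn2 (4.58 against 5.43 to 5.56). Clone 1 BR2 was highest for Lyz2 (4.92 against 1.28 to 1.41), and clone 1 BR1 was lowest for Myom2 (0.711 against 2.38 to 2.76). None of 60 combinations of list and group stood apart in this way.

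The response differed between knockout and control by limma's interaction, as knockout minus control, for Il1rn (2.31), Notch3 (1.99), Slc25a1 (1.78), Wdr6 (1.46), G6pdx (1.38), Mxd4 (1.25), Pdcd4 (1.21) and Enpp1 (1.16). It was more negative in the knockout for Sema3d (-2.60), Trim72 (-1.54), Spry1 (-1.21, and 1.01 with voom), Mylk2 (-1.01), Zc3h8 (-0.98) and Emc6 (-0.66). Of these genes, Il1rn, Sema3d, Spry1 and Mylk2 passed the expression filter only through control cells.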

How the results depend on the processing

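The count of differentiation calls (7208) lay between 5230 (mean of at least 5 FPKM) and 7906 (no filter), and between 6785 and 7225 with 1 knockout library left out. It was 6079 with only the 8 knockout libraries, 7462 with line and culture number as a replicate block, 7400 with the culture number alone as a replicate block, and 2488 (1025 higher, 1463 lower) with an absolute log2 of at least 1. The 30 differences from control became 13 (13 more positive) with a pseudocount of 0.1, 17 with the filter over the 8 knockout libraries, 7 with line and culture number as a replicate block, 49 with the culture number alone as a replicate block, 1 with line averages, 101 without clone 2, 2 without culture BR1, 0 without BR2 (limma, 511 at an unadjusted p under 0.05; voom was run on all libraries only) and 16 with an absolute log2 of at least 1. With 1 knockout library left out they ranged from 6 to 179, and no single control library was left out. On whole fragments voom called 20, all more positive. Differences between clones (0) became 28 with no filter and 8 with median-of-ratios scaling; voom gave 0, with 420 unadjusted. The 1029 culture calls became 614 with a mean of at least 5 FPKM and 219 with an absolute log2 of at least 1. Reversed values were the medians of fusion genes (-0.10, mean of at least 5 FPKM), miR-1 and miR-206 targets (0.0196 without BR1), adipocyte markers (0.0185 with no filter, -0.484 to 0.0033 with 1 library left out, the latter without GM clone 1 BR2) and osteoblast markers (0.0438 with no filter, 0.00032 without clone 2, 0.33 without BR1), the difference of response of Spry1 (1.01 with voom, adjusted p = 0.679) and the change of Wdr6 (-0.0945 without BR2, adjusted p = 0.656). The causes were not tested. Of 2010 values of named genes under other settings 1957 kept their call, 39 lost it and 14 gained one, and of 1752 with libraries left out 1647 kept it, 80 lost it, 24 gained one and 1 reversed. Differences of response of named genes were less stable: 134 of 205 kept their call under other settings, with 70 lost and 1 reversed, and 134 of 216 with libraries left out, with 82 lost. FPKM near 0 rest on few fragments, which limits the low genes.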
